A study of Sus scrofa with 32 samples.

Results

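The genes of the lysosome were followed as a set of 45 members through 4 compartments of the pig endometrium on Day 14. The members encode lysosomal hydrolases, lysosomal membrane proteins, the proteins that sort enzymes to the lysosome, subunits of its proton pump, and the transcription factors TFEB and TFE3. They were chosen by name, with earlier results of these data known, and matched by pig gene symbol to the gene IDs of the count tables. All 45 were found among the 30185 genes counted. The study asked in which cells of the endometrium genes differ between pregnant and nonpregnant pigs when the embryo begins to attach. Prepuberal gilts were synchronised with eCG and hCG, the pregnant gilts were inseminated with semen of a German Landrace boar, and the controls (called cyclic here) received the supernatant of centrifuged semen of the same boar. The epithelium of the lumen (LE) and of the glands (GE), the vessels (BV) and the stroma (S) were excised from cryosections with laser capture microdissection, a method that lifts chosen cells from a stained section. Each of 4 cyclic and 4 pregnant gilts gave 1 library per compartment, except that no GE library of 1 pregnant gilt was analysed here (n = 3 for pregnant GE, n = 4 for the other groups). Pregnant tissue came from the hyperemic zones, the sites of attachment with the conceptus removed, and for the cyclic gilts the site within the horn is not given in the sources used here.

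Lysosomes are acidic organelles that break down proteins, lipids and sugar chains from endocytosis and autophagy. Most of their soluble enzymes receive a mannose 6-phosphate tag in the Golgi, which receptors recognise and carry to the endosome, and the proton pump of the membrane keeps the lumen acidic. In the pig uterus, lysosomal proteases and their inhibitors are also known as secreted components of the fluid that feeds the conceptus. TFEB and TFE3 bind short E-box sequences of the CLEAR type in promoters of lysosomal genes.

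The libraries held from 2415216 to 7081556 counts (median 3624021). Levels are given as CPM, the counts scaled to a common library size, after TMM normalization over all 31 libraries, as mean ± SD over gilts, and libraries carry the codes of the labels, with C (cyclic) or P (pregnant), then L, G, B or S for the compartment, then the gilt number. The values of a group are listed throughout in the order of gilts C40, C42, C78, C128 or P39, P41, P43, P139, with P41 missing from GE. The captures were checked against marker genes of 6 cell types. The 8 epithelial markers summed to between 2277 and 3361 CPM in LE and between 1465 and 1859 CPM in GE, and FOXA2, a gland transcription factor, lay between 65.5 and 94.6 CPM in GE and at 7.46 CPM or below in LE. In BV, however, the epithelial sum was 2.84 to 47.1 CPM in cyclic and 161 to 284 CPM in pregnant gilts, without overlap, and in S it was 10.9 to 174 and 33 to 452 CPM. Leukocyte markers (12 genes) summed to 57.4 to 88.4 CPM in cyclic and 151 to 296 CPM in pregnant GE, again without overlap. Smooth muscle markers (5 genes) in BV summed to 5009 to 16104 CPM in cyclic and 721 to 6067 CPM in pregnant gilts, and they were lower in pregnant gilts without overlap in LE (154 to 381 and 93.2 to 115 CPM) and in S (322 to 868 and 182 to 285 CPM), where ACTA2 was called lower. In LE the epithelial sum was lower in pregnant (2277 to 2541 CPM) than in cyclic gilts (2788 to 3361 CPM). Of its 8 markers, KRT7 and KRT8 were called lower, and KRT18 and KRT19 were lower at a false discovery rate of 5%. However, 2 markers of this list were higher in pregnant LE at an unadjusted p under 0.05 by edgeR's test. The leukocyte sum ran from 116 to 349 CPM in cyclic and from 293 to 606 CPM in pregnant LE. None of these lists held a gene at 0 counts in a whole group. In such captures fewer cells of a type and less RNA per cell cannot be told apart.

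The sequence read by TFEB and TFE3 was looked for first, because both factors are members and the other members include their known targets. Windows from 250 bases before to 50 bases after each gene start were searched on both strands for CACGTG and for the longer GTCACGTG, which contains it, in the reference sequence of Sscrofa11.1 with the NCBI RefSeq gene starts. CACGTG was found for 13 of 45 members (28.9%) and for 1578 of 20653 protein-coding genes (7.64%), and GTCACGTG for 10 members (22.2%) and 539 genes (2.61%). The holders of the longer motif were ATP6V1H, CTSA, GNPTG, GUSB, HEXA, IDUA, LAMP1, MCOLN1, NAGPA and NEU1, and CTSF, LAMP2 and TPP1 held only the shorter one. Printed are the stretches before the gene start of LAMP1 and HEXA, which hold more than 1 match, of NEU1 as an example with a single match, and of CTSF, whose level is described below. Capitals mark the motif, and each line runs 5′ to 3′ on the strand of the gene, at chr11:78600568-78600697 (plus strand), chr7:60878418-60878517 (plus strand), chr7:23958665-23958712 (minus strand) and chr2:5855008-5855053 (plus strand).
LAMP1: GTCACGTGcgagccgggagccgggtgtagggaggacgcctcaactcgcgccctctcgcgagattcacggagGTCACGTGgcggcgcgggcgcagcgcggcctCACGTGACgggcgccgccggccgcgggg
HEXA: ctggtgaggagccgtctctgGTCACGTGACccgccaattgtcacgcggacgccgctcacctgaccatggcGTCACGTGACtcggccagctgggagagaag
NEU1: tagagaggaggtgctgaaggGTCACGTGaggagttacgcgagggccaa
CTSF: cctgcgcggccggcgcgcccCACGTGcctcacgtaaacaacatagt

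**Figure D1:**
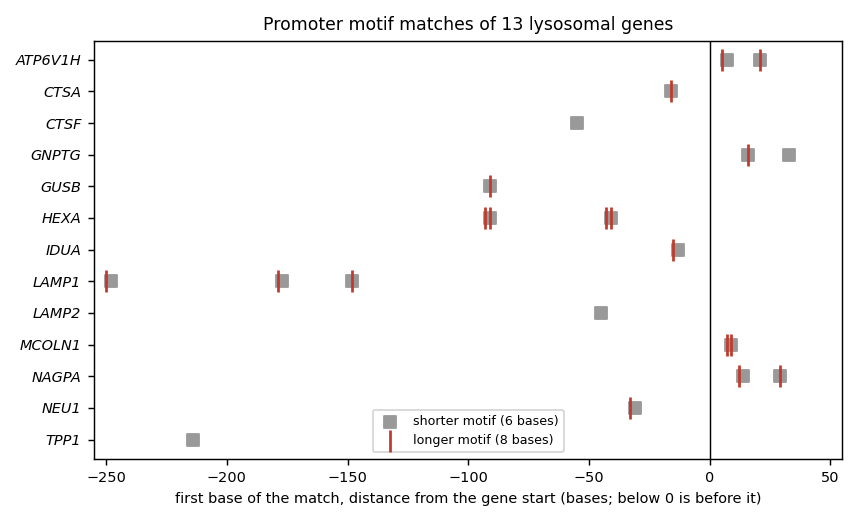
Position of CACGTG (grey squares, the shorter motif) and GTCACGTG (red bars, the longer motif, either strand) in the windows of the 13 members that hold a match, in bases from the gene start. Matches of ATP6V1H, GNPTG, MCOLN1 and NAGPA lie after the start, and LAMP1 has 3 matches before it, the farthest at -250 bases.

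Most members were well expressed. The authors' filtered tables, which keep the genes called detectable, held 43 members for LE and for GE, 44 for BV and for S, and 41 for all 4. Not detectable were CTSL and TFEB in LE, NAGPA and MANBA in GE, and NAGPA in BV and S, so that NAGPA was kept through LE alone. To compare genes with each other, levels were divided by exon length. On this scale (CPM per kb) 35 of 43 detectable members lay above the median of all detectable genes in cyclic LE, 30 of 43 in cyclic GE, 35 of 44 in cyclic BV and 36 of 44 in cyclic S, and 39 of 43, 35 of 43, 35 of 44 and 39 of 44 in the pregnant groups. PSAP, the precursor of the saposins that activate lipid hydrolases, was highest of the members in cyclic GE, BV and S (179, 160 and 168 CPM per kb). ASAH1, the acid ceramidase, led in LE with 1402 CPM per kb in cyclic and 1603 CPM per kb in pregnant gilts. Of the regulators, TFEB was below the median of all detectable genes wherever it was detectable (1.54 to 4.18 CPM per kb). TFE3 was below it in LE and GE (5.43 to 5.71 CPM per kb) and above it in BV and S (8.59 to 10.6 CPM per kb, medians of all genes 7.24 to 8.22). CTSL lay below it in GE and BV (2.64 to 5.83 CPM per kb) and above it in S (8.73 cyclic and 10.6 pregnant). CTSL had 35 counts in cyclic and 32 in pregnant LE, whereas the gene annotated as CTSV, which lists CTSL among its older names, had 2172 and 4185. The split of reads between these related genes is uncertain.

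**Figure D2:**
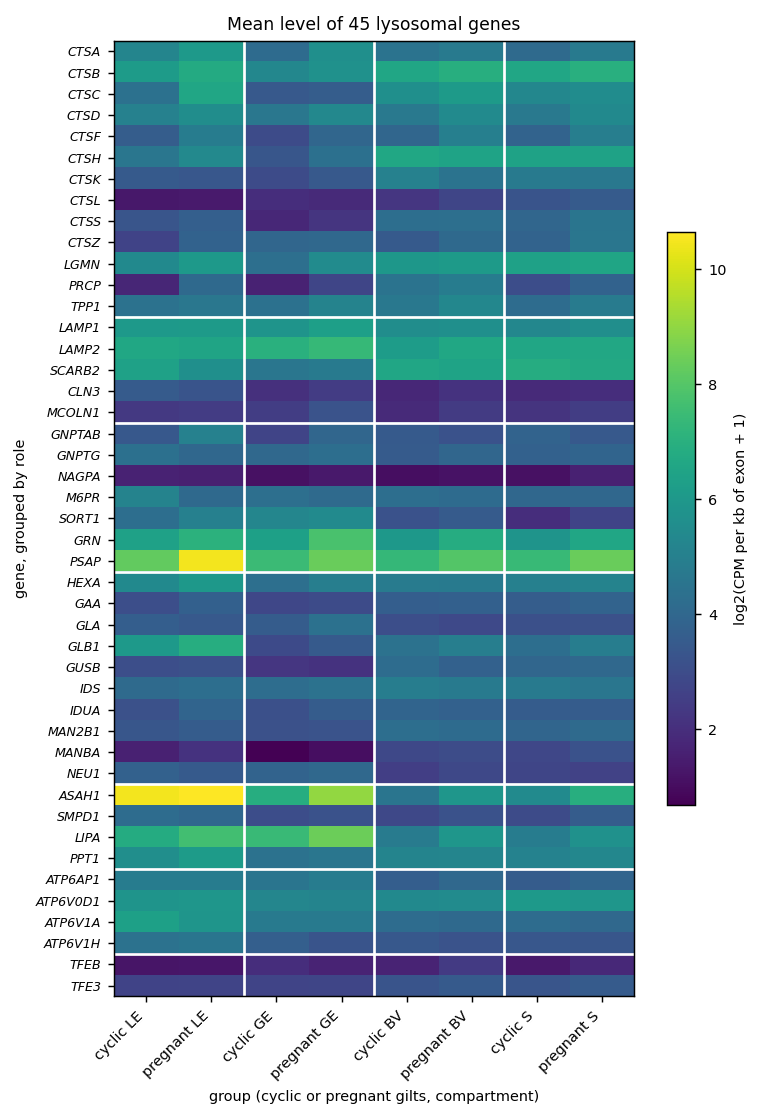
Mean level of each member in the 8 groups as log2(CPM per kb of exon + 1), with white lines between roles and between compartments. ASAH1 and PSAP in LE are the brightest cells, and NAGPA, CTSL, MANBA and TFEB are among the darkest.

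Whether levels differed between compartments was tested in a joint fit of all libraries with the gilt as a block. The 13887 genes detectable in at least 1 compartment were tested with edgeR's quasi-likelihood test at a false discovery rate of 1%. Each difference tested was the mean of the difference in cyclic and that in pregnant gilts. LE and GE differed in 26 of 45 members (57.8%, against 41.4% of all genes), 24 of them higher in LE. Of the 5754 genes called among all, 3596 were higher in LE as well. LE differed from BV in 32 members (71.1%, all genes 49.2%) and from S in 32 (71.1%, all genes 50.6%). GE differed from BV in 30 (66.7%, all genes 58.3%) and from S in 29 (64.4%, all genes 59.3%). BV and S differed in only 4 members (8.89%, all genes 7.19%), namely ATP6V0D1, PRCP, SORT1 and TPP1. The shares between the vascular and stromal captures and between GE and S were thus near those of all genes. In LE, 12 members were higher by this mean than in each of the other compartments. They were ASAH1, GLB1, ATP6V1A, PSAP, CLN3, ATP6V1H, SMPD1, CTSA, PPT1, HEXA, GNPTAB and M6PR. For GNPTAB and M6PR this did not hold in both cyclic and pregnant gilts. GNPTAB had 9.75 CPM per kb in cyclic LE, below 10.2 in cyclic BV and 13.3 in cyclic S. M6PR had 16.2 in pregnant LE, below 16.8 in pregnant BV and 16.4 in pregnant GE. In GE, 12 members were lower than everywhere else (CTSB, CTSC, CTSF, CTSH, CTSS, LGMN, PRCP, SCARB2, GLB1, GUSB, MANBA and PPT1). MANBA itself was not detectable in GE by the filter and was tested because it was detectable elsewhere. How many of all genes were likewise highest in LE or lowest in GE was not counted. The numbers of such members, also by role below, can therefore not be read as particular to the lysosome.

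The widest fold between compartments among the members was that of ASAH1, a lipid hydrolase. ASAH1 had 3860, 3499, 4162 and 1682 CPM in cyclic LE and 3014, 4777, 4140 and 3172 CPM in pregnant LE. In GE it had 261, 264, 489 and 95.3 CPM in the cyclic gilts and 1889, 826 and 1013 CPM in the pregnant gilts. Of the GE, BV and S libraries, PG39 alone (1889 CPM) exceeded the lowest LE library. ASAH1 was 5.98-fold higher in LE than in GE (log2 difference 2.58, SE 0.32, adjusted p = 1.32e-06), 41.5-fold higher than in BV (5.37, SE 0.34, adjusted p = 1.36e-10) and 22.8-fold higher than in S (4.51, SE 0.33, adjusted p = 1.07e-09). LIPA, the acid lipase that splits cholesteryl esters and triglycerides, was instead highest in GE, with 793, 307, 532 and 338 CPM in cyclic gilts and 1220, 1133 and 595 CPM in pregnant gilts. LIPA in GE exceeded BV 5.86-fold and S 6.19-fold (adjusted p = 6.13e-09 and 5.58e-09), but its 1.59-fold difference from LE missed the threshold (adjusted p = 0.016). SMPD1, the acid sphingomyelinase, and PPT1, which removes palmitate from proteins, were both highest in LE.

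Of the glycosidases, GLB1 and HEXA, and of the pump subunits, ATP6V1A and ATP6V1H, were higher in LE than in every other compartment. GLB1, the acid beta-galactosidase, had 185, 211, 205 and 28.6 CPM in cyclic LE and 274, 436, 207 and 239 CPM in pregnant gilts. The library CL128 stood far below the others. GLB1 in LE was 9.76-fold above GE (adjusted p = 2.04e-08), 3.44-fold above BV (adjusted p = 5.23e-06) and 3.58-fold above S (adjusted p = 3.19e-06). In contrast, GUSB, the beta-glucuronidase, and MANBA, the beta-mannosidase, were higher in BV and S than in either epithelium, with MANBA 8.38-fold higher in S than in GE (adjusted p = 7.37e-11). ATP6V1A, the catalytic subunit of the pump, had 158, 176, 180 and 150 CPM in cyclic LE and 104, 159, 131 and 82.3 CPM in pregnant gilts, all above every library of GE, BV and S, whose highest was at 60.6 CPM. The difference was 2.57-fold from GE, 4.07-fold from BV and 4.17-fold from S (adjusted p = 1.19e-07, 2.44e-10 and 2.86e-10).

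Of the 13 peptidases, CTSB, CTSC, CTSF, CTSH, CTSS, LGMN and PRCP were lower in GE than in every other compartment. CTSH was 7.44-fold and 6.99-fold higher in BV and S than in GE (adjusted p = 7.18e-11 and 1.03e-10), CTSS, a cathepsin of antigen-presenting cells, 6.14-fold and 5.97-fold (adjusted p = 1.23e-08 and 1.16e-08), and CTSK, a collagen-degrading cathepsin, 3.19-fold and 3.07-fold (adjusted p = 4.57e-09 and 7.03e-09). CTSC, which activates granule proteases of leukocytes, had 283, 244, 194 and 181 CPM in cyclic BV and 476, 357 and 310 CPM in PB39, PB41 and PB43, with PB139 below every cyclic library. Its BV level was 5.87-fold that of GE (adjusted p = 7.13e-07) and could not be told from that of LE (1.40-fold, adjusted p = 0.151) or S (1.35-fold, adjusted p = 0.36). The difference from LE averages opposite directions, with BV above LE in cyclic gilts (48.3 and 20 CPM per kb) and below it in pregnant gilts (68.7 and 94.5). The leukocyte markers were also lowest in GE and highest in BV and S (means of 67.3, 675 and 776 CPM in the cyclic groups), and their part in these differences was not tested. PRCP, a carboxypeptidase that cleaves angiotensins and kinins, was the only member highest in BV over all others, 4.00-fold over LE, 6.86-fold over GE and 2.49-fold over S (adjusted p = 1.01e-08, 2.31e-10 and 4.70e-05). The fold over LE averages a wide difference in cyclic gilts (21.5 in BV and 2.34 CPM per kb in LE) and a smaller one in pregnant gilts (28.2 and 16). LGMN, the asparaginyl endopeptidase, had 136, 167, 184 and 163 CPM in cyclic S and 138, 189, 186 and 227 CPM in pregnant gilts, above GE (3.11-fold, adjusted p = 1.22e-07) and LE (1.72-fold, adjusted p = 0.000455) but not separable from BV (1.40-fold, adjusted p = 0.0589). The low gene CTSL ran from 1.17 to 29.6 CPM among S libraries, and S exceeded LE (5.28-fold, adjusted p = 0.000731) but no other compartment at the threshold.

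Membrane proteins and sorting genes were split between compartments. LAMP2, a major glycoprotein of the lysosomal membrane, had 402, 435, 331 and 284 CPM in cyclic GE and 481, 485 and 424 CPM in pregnant gilts. It was the only member highest in GE over all others, by 1.56-fold over LE, 1.74-fold over BV and 1.5-fold over S (adjusted p = 0.000205, 9.32e-06 and 0.000266). SCARB2, the receptor that carries beta-glucocerebrosidase, had 649, 552, 509 and 485 CPM in cyclic S and 543, 477, 456 and 508 CPM in pregnant gilts, above LE (1.74-fold) and GE (4.43-fold) and not separable from BV (1.22-fold, adjusted p = 0.142). SORT1, the sorting receptor sortilin, had 231, 245, 233 and 352 CPM in cyclic GE and 276, 321 and 317 CPM in pregnant gilts. S was lower than every other compartment, 11-fold below GE (adjusted p = 8.36e-10), and BV lay between S and the epithelia. GE and LE did not differ at the threshold (1.72-fold, adjusted p = 0.0117).

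**Figure D3:**
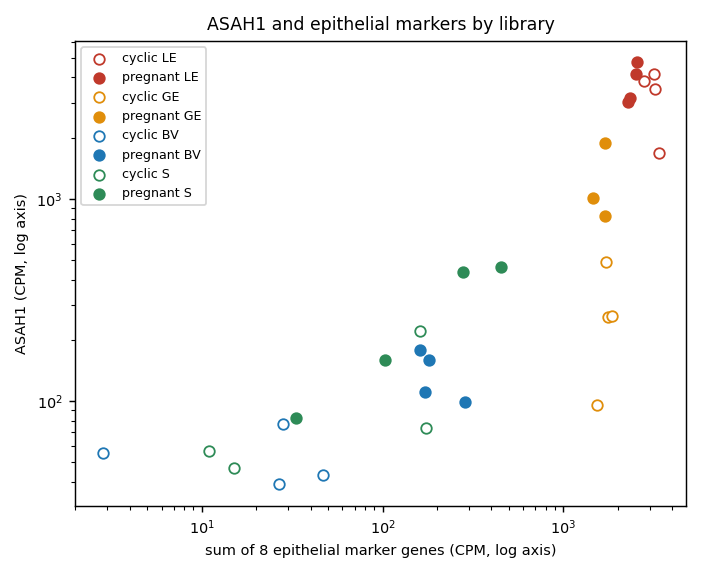
ASAH1 in each library against the sum of 8 epithelial marker genes, both in CPM on log axes, with open symbols for cyclic and filled symbols for pregnant gilts. LE libraries lie at the top right, and within S the libraries PS41 and PS139 are highest on both axes.

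Pregnant and cyclic gilts were then compared within each compartment by edgeR's quasi-likelihood test. The rule of the study was followed, with a false discovery rate of 1% for LE and, elsewhere, an unadjusted p up to the largest one so called (0.000328), so that a call outside LE can carry an adjusted p above 0.01. Called were 4 of 43 members in LE (9.30%, against 3.32% of all genes), 2 of 43 in GE (4.65%, all genes 0.748%), 0 of 44 in BV (all genes 1.86%) and 1 of 44 in S (2.27%, all genes 0.293%). These were PRCP, GNPTAB and PSAP (up) and M6PR (down) in LE, GRN and GNPTAB in GE, and CTSF in S. The part of the lower epithelial and smooth muscle sums and the higher leukocyte sum of pregnant LE (above) in the LE calls, and of the lower smooth muscle sum of pregnant S in the call of CTSF, was not tested. An unadjusted p of less than 0.05 was found for 22 members in LE (51.2%, all genes 26.9%), 19 of them up, for 20 in GE (46.5%, all genes 23.0%), 19 up, for 12 in BV (27.3%, all genes 28.5%), 11 up, and for 16 in S (36.4%, all genes 14.5%), 15 up. The share in BV was thus no higher than that of all genes. The median log2 fold change of the members was 0.30 (LE), 0.45 (GE), 0.34 (BV) and 0.24 (S), whereas the medians of all genes tested lay within 0.01 of 0, and 32 of 43, 36 of 43, 31 of 44 and 35 of 44 members were above 0.

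The number of calls depended on the threshold and the tool. A false discovery rate of 5% was met by 12 members in LE (27.9%, all genes 10.7%), 4 in GE (9.30%, all genes 1.86%), 6 in BV (13.6%, all genes 8.63%) and 0 in S (all genes 0.0335%). With edgeR's robust GLM, the test named by the study, and its own limit (0.00114), 9 members were called in LE (20.9%, all genes 11.8%), 6 in GE (14.0%, all genes 6.66%), 6 in BV (13.6%, all genes 11.0%) and 7 in S (15.9%, all genes 3.16%). DESeq2 called 13 in LE (30.2%, all genes 11.2%), 11 in GE (25.6%, all genes 6.64%), 6 in BV (13.6%, all genes 8.50%) and 7 in S (15.9%, all genes 2.60%). Members called lower in pregnant gilts were M6PR in LE with all of these tools, and SCARB2 in LE at a false discovery rate of 5% and with DESeq2.

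**Figure D4:**
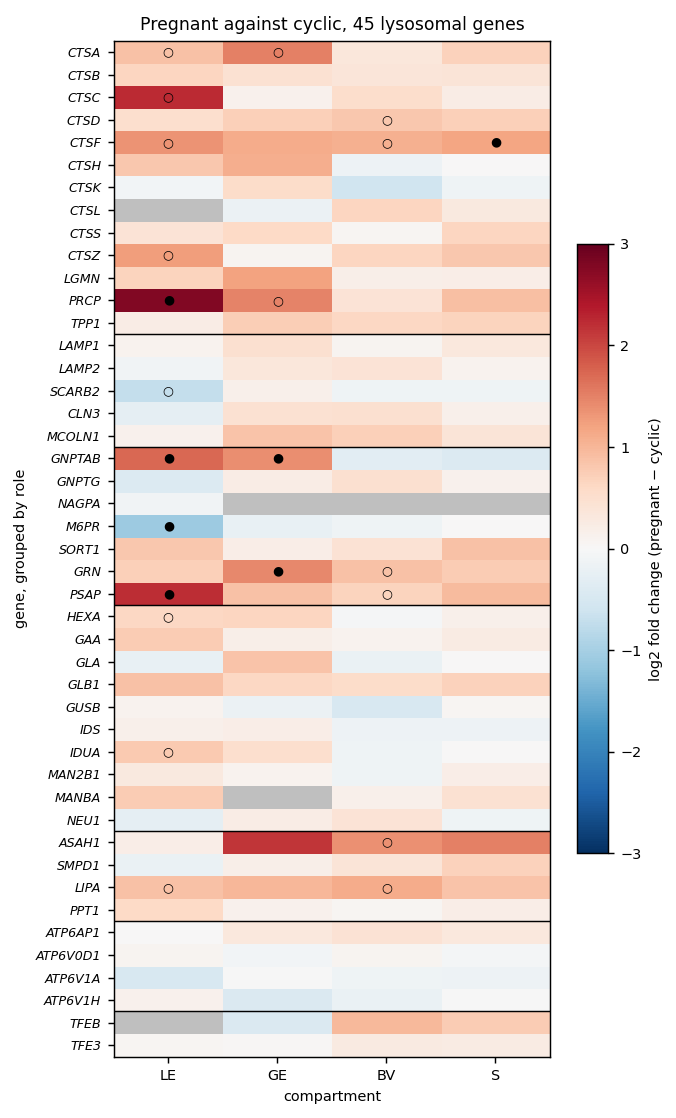
Log2 fold change (pregnant minus cyclic, edgeR) of each member in each compartment, with filled dots for members called by the rule of the study, open dots for those at a false discovery rate of 5% only, and grey for members not detectable. Red prevails among the peptidases, while the proton pump subunits are near white.

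Of the 7 sorting and activator genes, 4 were called in at least 1 compartment, namely GNPTAB (chr5:82264640-82460819), PSAP (chr14:74734185-74820645), M6PR (chr5:62537751-62557674) and GRN (chr12:18893772-18900444), in coordinates of Sscrofa11.1. GNPTAB encodes the enzyme precursor that makes the mannose 6-phosphate tag. In LE it had 97.9, 95.9, 108 and 64 CPM in cyclic gilts, and 320, 295, 349 and 245 CPM in pregnant gilts. In GE the cyclic values were 49.3, 45, 54.1 and 60.7 CPM, and the pregnant ones 136, 158 and 120 CPM. The groups did not overlap in either epithelium, and GNPTAB rose 3.32-fold in LE (log2 fold change 1.73, SE 0.21, adjusted p = 0.00202) and 2.62-fold in GE (1.39, SE 0.16, adjusted p = 0.0276). The call in LE was lost without CL40 (adjusted p = 0.0103). In BV the values were 92.6, 87.4, 92.6 and 110 CPM in cyclic and 74.3, 93.5, 78.3 and 57.5 CPM in pregnant gilts, with overlap. In S the means were 125 ± 12.5 and 94.1 ± 11.5 CPM (SD, n = 4 each), where the groups did not overlap but the test was not passed (log2 fold change -0.40, SE 0.14, adjusted p = 0.254).

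PSAP had 834, 1034, 1258 and 341 CPM in cyclic LE, and 3220, 5268, 3548 and 4023 CPM in pregnant gilts. Every pregnant library was above every cyclic one, by 4.63-fold in the fit (log2 fold change 2.21, SE 0.39, adjusted p = 0.00911). Leaving out CL40, CL42 or any pregnant LE library ended the call, with adjusted p up to 0.0344 and log2 fold changes between 1.94 and 2.48. PSAP means were also higher in pregnant GE (946 against 508 CPM), BV (713 against 455 CPM) and S (925 against 478 CPM), none called and without overlap in any, with adjusted p of 0.0652, 0.0344 and 0.118. Exons of CDH23 overlap 15.5% of the exon bases of PSAP, and CDH23 had 85 counts in cyclic and 224 in pregnant LE, against 14248 and 73742 for PSAP.

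M6PR, a receptor for the mannose 6-phosphate tag, moved the other way in LE, from 97, 127, 123 and 82.2 CPM in cyclic gilts to 45.2, 60, 48 and 47 CPM in pregnant gilts. The groups did not overlap, and M6PR fell 2.13-fold (log2 fold change -1.09, SE 0.19, adjusted p = 0.00861). Leaving out any LE library other than CL128 ended the call (adjusted p up to 0.0317). Elsewhere M6PR lay between 46.9 and 58.9 CPM in every group mean, with log2 fold changes between -0.23 and 0.00. GRN encodes progranulin, a glycoprotein that is taken to the lysosome. In GE it had 154, 172, 182 and 172 CPM in cyclic gilts and 480, 452 and 466 CPM in pregnant gilts. This 2.72-fold rise (log2 fold change 1.44, SE 0.14, adjusted p = 0.0276) had the smallest p of the members in GE. In BV, GRN lay between 114 and 148 CPM in cyclic gilts and at 315, 230, 234 and 183 CPM in pregnant gilts, without overlap and not called (log2 fold change 0.89, SE 0.17, adjusted p = 0.0193). Leukocyte markers were higher in the same pregnant GE libraries (above), with 0 of 9 tested markers called by the rule, CD14 and CD74 past the 5% threshold, 5 of 9 at an unadjusted p under 0.05 and a median log2 fold change of 1.28, and their part in the change of GRN and GNPTAB there was not tested.

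**Figure D5:**
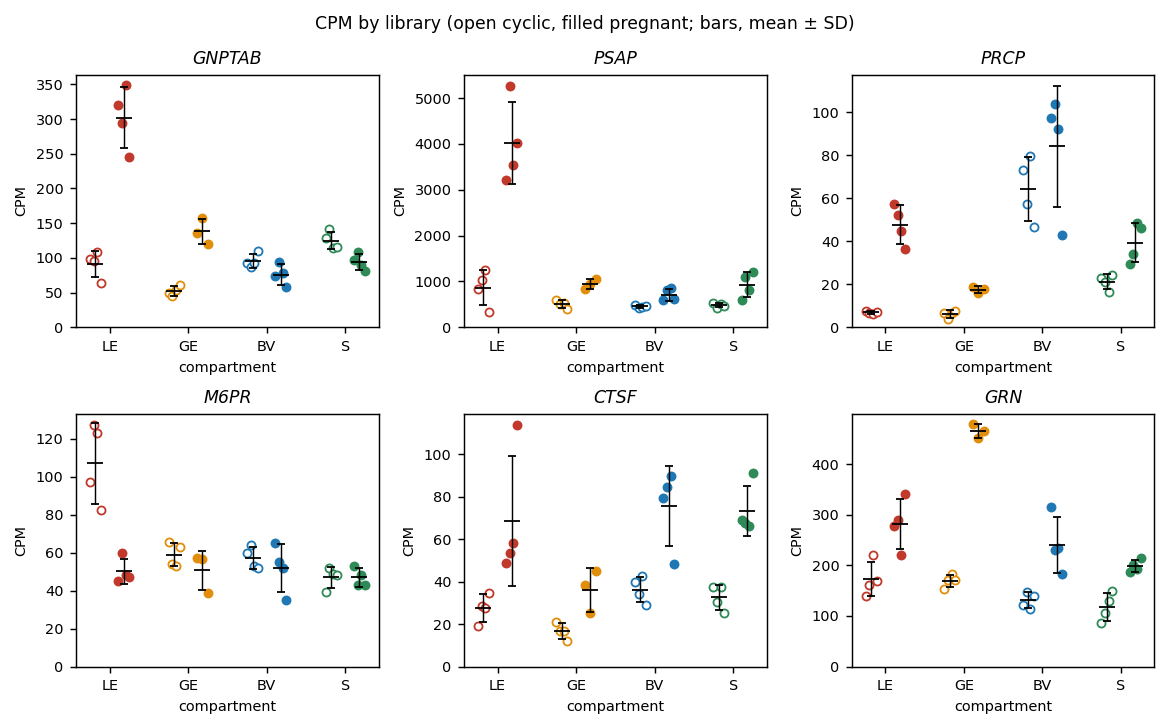
CPM of the 6 members called in any compartment, by library, with open symbols for cyclic and filled symbols for pregnant gilts and bars for mean ± SD. PSAP and CTSF separate in all 4 compartments, GNPTAB is higher in pregnant LE and GE and lower in pregnant S, PRCP is higher in pregnant LE, GE and S, GRN in pregnant GE, BV and S, and M6PR is lower in pregnant LE.

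Among the 13 peptidases, PRCP (chr9:17002699-17134446) and CTSF (chr2:5855083-5860258) were called. PRCP had 7.65, 6.85, 6.14 and 7.23 CPM in cyclic LE and 57.3, 52.1, 44.8 and 36.5 CPM in pregnant gilts. It rose 6.87-fold (log2 fold change 2.78, SE 0.19, adjusted p = 0.000104) and remained called without any 1 library (adjusted p from 0.000372 to 0.00128). In GE it had 6.68, 3.64, 6.78 and 7.78 CPM in cyclic and 18.9, 15.8 and 17.9 CPM in pregnant gilts, also apart but uncalled (log2 fold change 1.49, SE 0.27, adjusted p = 0.0455). In BV, where PRCP was highest, the groups overlapped (73.1, 57.3, 79.5 and 46.7 CPM against 97.4, 104, 92 and 42.7 CPM, adjusted p = 0.368). In S it had 23, 21.1, 16.4 and 24.4 CPM in cyclic and 29.2, 34.1, 48.4 and 46.1 CPM in pregnant gilts, apart, not called by the rule (log2 fold change 0.90, SE 0.21, adjusted p = 0.118) and called by the robust GLM and DESeq2. Exons of RAB30 overlap 3.49% of the exon bases of PRCP. RAB30 counts were higher in pregnant than cyclic LE (640 against 258). They were lower in pregnant BV (588 against 908) and pregnant S (754 against 1126). The part of RAB30 reads in the PRCP values was not tested.

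CTSF is a cysteine cathepsin, and its groups were apart in all 4 compartments. In S it had 37.3, 30.6, 37.3 and 25.1 CPM in cyclic gilts and 69.1, 67.5, 66.1 and 91 CPM in pregnant gilts, a 2.26-fold rise (log2 fold change 1.18, SE 0.18, edgeR's unadjusted p = 7.28e-05, adjusted p = 0.0891). The call in S was lost without CS42, and also without PS41 and PS139, which had the highest epithelial marker sums (log2 fold change 1.05). In BV its values were 39.9, 34.1, 42.5 and 28.9 CPM against 79.6, 84.7, 89.8 and 48.2 CPM (log2 fold change 1.07, SE 0.21, adjusted p = 0.0204), and leaving out the pregnant BV libraries with the highest epithelial sums gave 1.27 and a call. The means of cyclic and pregnant gilts were 27.5 ± 6.49 and 68.6 ± 30.6 CPM in LE and 16.6 ± 3.72 and 36.1 ± 10.2 CPM in GE (SD), with log2 fold changes of 1.35 and 1.11 (adjusted p = 0.0286 and 0.0686), neither called. The robust GLM and DESeq2 called CTSF in all 4 compartments.

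Of the peptidases that the rule did not call, CTSC in LE had 126, 73.6, 144 and 30.8 CPM in cyclic gilts and 522, 432, 390 and 421 CPM in pregnant gilts, without overlap (log2 fold change 2.24, SE 0.43, adjusted p = 0.0121). CTSD, the main aspartic protease of the lysosome, and CTSZ had the smallest p of S after CTSF. CTSD in S had 44.9, 47.4, 52.2 and 59.9 CPM against 91.1, 78, 85.1 and 80.7 CPM, and CTSZ 16.3, 20.8, 20.9 and 17.2 CPM against 31.9, 24.6, 38.8 and 36.5 CPM, both apart (log2 fold changes 0.71 and 0.81, adjusted p = 0.109 and 0.118). CTSA, the protective protein of beta-galactosidase and neuraminidase, had adjusted p of 0.0132 in LE and 0.0482 in GE (log2 fold changes 0.89 and 1.52), and 28.5% of its exon bases overlap NEURL2 or PLTP, which had at most 194 counts in any group. The medians of the peptidases were 0.73 (LE), 0.71 (GE), 0.40 (BV) and 0.65 (S) on the log2 scale. CTSB, CTSH, CTSK, CTSL, CTSS, LGMN and TPP1 passed neither the rule nor a false discovery rate of 5% in any compartment.

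No lipid hydrolase was called by the rule. ASAH1 passed no threshold in LE (log2 fold change 0.20, SE 0.31, adjusted p = 0.723), and the GE values printed above (mean ± SD 277 ± 162 CPM cyclic, n = 4, and 1243 ± 567 CPM pregnant, n = 3) were apart (2.14, SE 0.52, adjusted p = 0.0751). In BV, where ASAH1 had the smallest p of the members, it had 43.2, 55.1, 76.9 and 38.7 CPM in cyclic gilts and 160, 180, 111 and 98.5 CPM in pregnant gilts (1.38, SE 0.26, adjusted p = 0.0185). In S its values were 46.8, 56.5, 222 and 74 CPM against 82.4, 462, 160 and 438 CPM, with overlap. In these S libraries the epithelial sum was 15.1, 10.9, 162 and 174 CPM in the cyclic and 33, 452, 103 and 280 CPM in the pregnant gilts in the same order, so that the highest ASAH1 values of S came with the highest sums of the pregnant group, and the part of epithelial RNA in the values of BV and S was not tested. Without PB39 and PB139, which had the highest sums, the log2 fold change in BV was 1.45 (adjusted p = 0.0606). LIPA was above its cyclic mean in each compartment, with log2 fold changes of 0.87 (LE), 0.99 (GE), 1.12 (BV) and 0.86 (S) (adjusted p = 0.0182, 0.184, 0.0214 and 0.208).

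The remaining roles had few members past the rule or the 5% threshold. Of the 10 glycosidases, HEXA, the alpha subunit of beta-hexosaminidase (log2 fold change 0.61, adjusted p = 0.0462), and IDUA, the alpha-iduronidase (0.79, adjusted p = 0.0439), met the 5% threshold in LE, with none past it elsewhere, with medians of 0.45 (LE), 0.22 (GE), -0.08 (BV) and 0.11 (S). Of the 5 membrane proteins, SCARB2 in LE was lower in pregnant gilts at that threshold (394 ± 44.6 against 237 ± 66.3 CPM, log2 fold change -0.72, SE 0.20, adjusted p = 0.0491), with overlapping groups. LAMP1 and LAMP2 had log2 fold changes of 0.11 and -0.11 in LE. No proton pump subunit passed the rule or the 5% threshold in any compartment, though 1 in LE (down) and 2 in GE (1 up, 1 down) of the 4 had an unadjusted p under 0.05, and their log2 fold changes lay between -0.47 and 0.43.

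TFEB and TFE3 were not called in any compartment by the quasi-likelihood test, the robust GLM or DESeq2. TFE3 had 18.8, 19.1, 16.6 and 19.8 CPM in cyclic LE and 17.2, 22.7, 15.4 and 21.1 CPM in pregnant gilts, with overlap. Its log2 fold changes were 0.06 (LE), 0.04 (GE), 0.27 (BV) and 0.25 (S), with SE of 0.18, 0.20, 0.20 and 0.16. TFEB, with 49 counts in all of cyclic LE, was not detectable there. In BV, TFEB had 5.99, 6.25, 5.52 and 2.69 CPM in cyclic and 10.6, 9.96, 13.4 and 5.92 CPM in pregnant gilts, with overlap (log2 fold change 0.97, SE 0.35, adjusted p = 0.108). Of the 6 members called in any compartment, 0 held GTCACGTG in the window searched, and CTSF held CACGTG, as printed above. At the 5% threshold, however, 3 of 10 holders and 9 of 33 other members passed in LE, 1 of 9 and 3 of 34 in GE, and 0 of 9 and 6 of 35 in BV. The 10 holders of GTCACGTG had median log2 fold changes of 0.12 (LE), 0.47 (GE), 0.08 (BV) and 0.12 (S), beside 0.50, 0.40, 0.39 and 0.29 for the other members tested. The gene starts are those of the annotation and were not checked, so that a motif near another start would be missed. This applies to the called members too. Their 0 matches and the medians by motif therefore cannot show that the genes lack the motif at the starts they use.

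The change with pregnancy was compared among compartments by the interaction terms of the joint fit for the 41 members detectable in all. At a false discovery rate of 1% it differed for 3 members (7.32%, all genes 3.05%), namely GNPTAB (adjusted p = 1.18e-06), PRCP (0.00112) and PSAP (0.0086), while M6PR just missed (0.011). Between LE and BV, 3 members differed (7.32%, all genes 3.37%), and for GNPTAB the difference of the log2 fold changes was 2.10 (SE 0.21), for PRCP 2.42 (SE 0.36) and for PSAP 1.65 (SE 0.32). LE and S differed in 3 members (7.32%, all genes 1.48%), namely GNPTAB by 2.16 (SE 0.21), PRCP by 1.86 (SE 0.36) and M6PR by -1.06 (SE 0.22, adjusted p = 0.00704). GE differed from BV and from S in GNPTAB alone (2.44% of the members, all genes 0.185% and 0.0720%), by 1.82 and 1.88 (SE 0.22). LE and GE differed in 0 members (all genes 1.54%), with 13 of 41 at an unadjusted p under 0.05 (31.7%, all genes 18.6%) and, for GNPTAB, a difference of 0.28 (SE 0.22, adjusted p = 0.544). The rise of GNPTAB thus separated both epithelia from BV and S, whereas the test was not passed for CTSF (adjusted p = 0.975). Leaving out 1 gilt gave between 1 and 3 members. The difference of PSAP between LE and BV lost its call without C40, P39 or P41 (adjusted p up to 0.015), that of PRCP between LE and S without any gilt but P139 (up to 0.0312) and that of M6PR without any but C128 and P41 (up to 0.0405), while the difference of GNPTAB between LE and BV stayed between 1.86 and 2.22.

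Other genes of the lysosome, 125 of 130 listed by role and found in the tables, gave the setting of the members. In LE 4 of 117 tested rose and 1 fell (4.27% called, all genes 3.32%), in GE 1 of 113 rose (0.885%, all genes 0.748%), in BV 4 of 107 (3.74%, all genes 1.86%) and in S 1 of 113 (0.885%, all genes 0.293%). The shares in LE and GE were near those of all genes. Their median log2 fold changes were 0.05, 0.08, 0.15 and 0.14. The pump subunit ATP6V0A1 fell in LE, from 325, 405, 339 and 282 CPM in cyclic gilts to 129, 163, 145 and 134 CPM in pregnant gilts (log2 fold change -1.23, SE 0.17, adjusted p = 0.00317). SCPEP1, a serine carboxypeptidase, rose there from a mean of 64.6 to 213 CPM (adjusted p = 0.00539), the calcium channel gene TPCN2 from 15.7 to 48.3 CPM (adjusted p = 0.009) and CTSV from 135 to 247 CPM (adjusted p = 0.00904). KNG1, the kininogen precursor, which has cystatin domains that inhibit cathepsins, had 1 count in cyclic and 126 in pregnant LE. The pregnant libraries had 18.1, 1.57, 9.28 and 7.46 CPM. The ratio of pooled CPM was 119, with an exact 95% interval of 21 to 4740 for counting error, which leaves out the spread between gilts. With 1 cyclic count, KNG1 passed the LE filter through the pregnant group alone, so its call there (adjusted p = 0.00725) is no independent support. In GE, KNG1 rose from 2.77, 2.02, 2.12 and 1.3 CPM in cyclic gilts to 19.4, 8.36 and 13.2 CPM in pregnant gilts (log2 fold change 2.71, SE 0.38, adjusted p = 0.0361).

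In BV the called genes were PLBD2 (48.4 to 86 CPM), the adaptor subunit AP1B1 (43.2 to 102 CPM), the pump subunit ATP6V1C2 (2.32 to 16.9 CPM) and ACP5, the acid phosphatase uteroferrin, which is secreted by the glands of the pig uterus (5.8 to 348 CPM). In the pregnant BV libraries ACP5 had 382, 32.6, 606 and 373 CPM (log2 fold change 5.88, SE 0.84, adjusted p = 0.013). It was also called in S (3.18, SE 0.47, adjusted p = 0.0891). In GE its mean was 5707 CPM in pregnant gilts, with FOXA2 at 4.21 to 22.8 CPM in pregnant and 0.284 to 2.1 CPM in cyclic BV, and the part of gland RNA in the values of BV was not tested. The cystatins CST3, CST6 and CSTB were not called. CST3 had log2 fold changes of 0.57 (LE), 0.75 (GE), 0.59 (BV) and 0.32 (S), CST6 of 1.39 in LE and 1.98 in GE (adjusted p = 0.162 and 0.0974), and CSTB between -0.25 and 0.23.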

How the data were processed

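The count tables that the authors deposited hold whole counts of reads per NCBI gene for each library, without normalization, in 4 tables of all 30185 genes, 1 per compartment, and in 4 others that keep the genes past a minimum CPM there. As the methods of the study state, without versions, reads were trimmed with Trim Galore, mapped to Sscrofa11.1 with Hisat2, freed of PCR duplicates with nudup and counted with QuasR. Use of strand in the counting is not given in the sources used here, so that reads of overlapping genes cannot be told apart. Libraries were amplified from picogram amounts of RNA, and the lowest total of 2415216 counts limits the precision for low genes. The 45 members, the wider lists and the marker lists were chosen with earlier results of these data known.

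Pregnant and cyclic libraries were compared in each compartment on the filtered counts with TMM normalization and edgeR 4.0.16 under R 4.3.3, by its quasi-likelihood test, with Benjamini-Hochberg adjustment over the genes tested. Each standard error is the coefficient over the root of its F. Compartments and interactions were tested in 1 joint fit with the gilt as a block, since the numbers of the labels mark the animal. Alternatives were edgeR's robust GLM, DESeq2 1.42.0, RLE normalization, no filter, a false discovery rate of 5%, the joint fit, no ribosomal RNA genes and each library or gilt left out, and, added after seeing the data, the pregnant BV and S libraries with the highest epithelial marker sums left out. The models were tested on simulated data. Libraries were chosen for printing for members called in pregnancy, the 3 smallest p in each compartment, the 3 members highest over the other compartments, members called in the interaction, TFEB and TFE3. Not every compartment of these is printed in full, and CTSL in S is given as a range. Of the called genes of the wider lists, only ATP6V0A1, KNG1 and, in pregnant BV, ACP5 are given by library. The cathepsin protein comparison that was planned was not run.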

Additional observations from a re-analysis of the deposited data

Results flagged for a closer look

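The effect of pregnancy differed between compartments for GNPTAB (adjusted p = 1.18e-06), PRCP (adjusted p = 0.00112) and PSAP (adjusted p = 0.0086), by the interaction test of edgeR in the joint fit.

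Among 140 groups of 4 libraries of the members named with all libraries, 9 had a library far from the other 3 by Dixon's test at 95%, where chance gives about 1 in 20. The libraries of gilt P139 stood apart for CTSF in LE (114 CPM, the nearest library 58.3 CPM) and in S (91 CPM, nearest 69.1 CPM), for CTSZ in LE (26.2 CPM, nearest 16.3 CPM) and, by a small step, for ATP6V1A in BV (33.4 CPM, nearest 32.7 CPM). Gilt C128 was low for GLB1 in LE (28.6 CPM, nearest 185 CPM) and high for SORT1 in GE (352 CPM, nearest 245 CPM). Gilt C78 was high for ASAH1 in S (222 CPM, nearest 74 CPM), gilt C40 low for CTSL in BV (2.4 CPM, nearest 6.25 CPM), and gilt P39 high for LIPA in BV (258 CPM, nearest 154 CPM). The causes were not tested.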

How the results depend on the processing

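The number of members called between pregnant and cyclic gilts, 4, 2, 0 and 1 for LE, GE, BV and S, was 12, 4, 6 and 0 at a false discovery rate of 5%, 9, 6, 6 and 7 with the robust GLM, 13, 11, 6 and 7 with DESeq2 and 10, 9, 4 and 5 in the joint fit. Without a filter it was 5, 2, 3 and 1, and without the pregnant libraries of the highest epithelial marker sums 1 in BV and 0 in S. RLE normalization and leaving out the ribosomal RNA genes changed none of the 4 counts of the main fit. With each library left out the counts ran from 1 to 5 (LE), 2 to 3 (GE), 0 to 3 (BV) and 0 to 2 (S). No paired analysis was possible for pregnant against cyclic gilts because these groups share no gilt. For the compartments the gilt is a block, and the fit with no replicate block gave 2 members between BV and S in place of 4, while the other pairs kept within 1.5 times. With each gilt left out the counts ran from 23 to 28 (LE and GE), 30 to 33 (LE and BV), 29 to 32 (LE and S), 28 to 30 (GE and BV), 28 to 31 (GE and S) and 2 to 5 (BV and S). The interaction gave 8 members at a false discovery rate of 5%, 7 with DESeq2 and 1 to 3 with a gilt left out, instead of 3. The alternative motif TCACGTGA was found for 6 members instead of 10. The cause of these changes was not tested. Apart from left-out libraries, 71 of the other fits of named members gave the same outcome, called or uncalled. A call was gained in 24 and lost in 2, and no direction was reversed.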
